A study of Mus musculus with 3 samples.

Results

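Neutrophils that carried mRNA for the granule proteins Camp, Ltf or Ngp were examined in digested mouse liver. A barcode was taken as a member when it had at least 200 detected genes, at least 2 UMIs (unique molecular identifiers, each standing for 1 captured mRNA molecule) of S100a8 and 2 of S100a9, and at least 2 UMIs of Camp, Ltf and Ngp together. This rule found 133 members among 25263 barcodes with at least 200 genes, which are called cells here. Comparison cells, 2183 in all, passed the same S100a8 and S100a9 limits, had at least 2 UMIs of Retnlg, Cxcr2 and Csf3r together and had no UMI of the 3 granule genes. Members were thus chosen by their UMIs of Camp, Ltf, Ngp, S100a8 and S100a9, and the levels of these 8 genes in members and comparison cells are given as descriptions, set in part by the rule. Other genes that go along with these 8 may differ between members and comparison cells in part for the same reason.

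The livers came from adult C57BL/6 mice and were profiled by Drop-seq, a method that encloses each cell with a barcoded bead in a droplet. Control livers had sham surgery and were taken after 1 day, and injured livers were taken 1 day or 7 days post injury (p.i.) after irreversible electroporation (IRE), in which 8 electric pulses of 50 ms, 1 s apart, kill the cells of a confined area. A punch of 4 mm of the injured area, or of the matching uninjured area, was digested with enzymes, and red blood cells were lysed. Each condition is 1 library pooled from 3 livers, so no difference between conditions has a replicate check and no test across samples was possible. Values are given with 95% intervals in parentheses, which cover counting error only.

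Neutrophils are made in the bone marrow, where dividing precursors fill granules in a fixed order. Primary (azurophil) granules hold myeloperoxidase and serine proteases, secondary (specific) granules hold lactoferrin and the cathelicidin precursor, and tertiary granules hold gelatinase. Transcription of the granule genes stops as the cell matures and leaves the marrow, and the mature cell carries the proteins without their mRNA, together with chemokine and growth factor receptors such as Cxcr2 and Csf3r. In wounds, neutrophils arrive early, kill microbes and release chemokines and cytokines.

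The 3 granule genes that define the members lie on mouse chromosome 9. Camp encodes the cathelicidin precursor, Ltf encodes lactoferrin, which binds iron, and Ngp encodes neutrophilic granule protein. Their promoters, the 250 bases before each RefSeq start site in build GRCm38.p6, are shown because the 3 genes were detected together in most control members while most members at 7 days p.i. held Ngp without the others. Capitals mark matches on either strand to TTNNGNAA, a core read by C/EBP factors, and to GAGGAA, a core read by PU.1, and no marked matches overlap.
Ngp, chr9:110419558-110419807, plus strand: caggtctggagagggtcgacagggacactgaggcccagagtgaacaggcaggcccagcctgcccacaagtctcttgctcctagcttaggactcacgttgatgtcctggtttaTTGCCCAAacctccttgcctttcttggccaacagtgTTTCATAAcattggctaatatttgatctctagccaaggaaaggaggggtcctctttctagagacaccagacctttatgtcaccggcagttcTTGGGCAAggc
Ltf, chr9:111019042-111019291, plus strand: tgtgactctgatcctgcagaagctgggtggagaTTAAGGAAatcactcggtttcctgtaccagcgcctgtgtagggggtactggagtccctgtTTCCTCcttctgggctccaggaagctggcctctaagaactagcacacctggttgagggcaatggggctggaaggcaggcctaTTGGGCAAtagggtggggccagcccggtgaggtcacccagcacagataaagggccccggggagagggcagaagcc
Camp, chr9:109849457-109849706, minus strand: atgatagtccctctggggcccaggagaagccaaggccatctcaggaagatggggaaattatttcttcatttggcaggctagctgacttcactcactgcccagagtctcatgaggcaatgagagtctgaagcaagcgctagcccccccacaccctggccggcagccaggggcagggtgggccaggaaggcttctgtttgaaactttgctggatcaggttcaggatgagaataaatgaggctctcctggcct

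The Ngp window held 3 matches to the C/EBP core, the Ltf window held 2 and 1 match to the PU.1 core, and the Camp window held neither. Among 32851 RefSeq promoters of the same length, 36.8% held the C/EBP core and 23.3% the PU.1 core. These matches are descriptions of letters, not of bound sites. Cebpe mRNA, which encodes the C/EBP factor of granule formation, gave 3 UMIs in 3 control members and 1 UMI in the control comparison cells, and was at 0 in members at both times p.i.

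Members were found in all 3 libraries, at very different numbers. There were 38 members among 10386 control cells (0.366%, 0.259 to 0.502), 4 among 9253 cells at 1 day p.i. (0.0432%, 0.0118 to 0.111) and 91 among 5624 cells at 7 days p.i. (1.62%, 1.3 to 1.98). Cells that passed the S100a8 and S100a9 limits numbered 501 in control, 106 at 1 day and 3407 at 7 days p.i., so that members made up 7.58% (5.42 to 10.3), 3.77% (1.04 to 9.38) and 2.67% (2.16 to 3.27) of them. Members at 7 days p.i. were a larger share of all cells and a smaller share of S100a8 and S100a9 cells than in control, with intervals that did not overlap. Of members and comparison cells together, members were 11.9% (8.57 to 16) in control and 4.65% (3.76 to 5.68) at 7 days p.i.

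The S100a8 and S100a9 limits were less selective at 7 days p.i. than in control. Barcodes with T or NK cell markers passed them in 54.9% of cases at 7 days p.i. and in 3.41% in control, and S100a8 and S100a9 together stood at 6558 CPM (UMIs per 1000000 UMIs) in the cells that failed the limits at 7 days p.i., against 748 in control. Among cells in which S100a8 and S100a9 took at least 10% of the UMIs, a restriction chosen after these values were seen and called S100-rich here, members were 27 of 94 members and comparison cells in control (28.7%, 19.9 to 39) and 77 of 576 at 7 days p.i. (13.4%, 10.7 to 16.4). At 7 days p.i. at least 1 granule UMI was seen in 3.66% of barcodes with T or NK cell markers. The share was 5.49% with endothelial markers and 7.6% in S100a8 and S100a9 cells. In control these shares were 2.36%, 1.43% and 12.6%. At least 2 UMIs were seen at 7 days p.i. in 0.61%, 0.61% and 2.67%. Barcodes with these markers were counted whether or not they passed the limits. The granule genes were rare in cells that failed the limits. At least 1 UMI of the 3 was seen in 1.36% of control cells that failed the S100a8 and S100a9 limits (median 591 UMIs per cell) and in 1.04% of such cells at 7 days p.i. (median 402), and at least 2 UMIs in 5 and in 0 of these cells, the latter allowing up to 0.135% of 2217 cells with that many UMIs, which says nothing of mRNA below detection.

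The members held neutrophil genes beyond those of the rule. Lcn2, a neutrophil granule gene, was seen in 36 of 38 control members, 3 of 4 at 1 day and 78 of 91 at 7 days p.i., against 40.2%, 29.7% and 41.4% of comparison cells. S100a8 and S100a9, the subunits of calprotectin, took 15.3% of the members' UMIs in control, 7.1% at 1 day and 17.2% at 7 days p.i. Members had a median of 690.5 UMIs in control, 833 at 1 day and 518 at 7 days p.i., and summed to 30876, 3973 and 54031 UMIs. Hepatocyte markers took 0.0551% of the members' UMIs in control, 1.36% at 1 day and 0.0352% at 7 days p.i., and mitochondrial genes 19.6%, 15.2% and 3.69%. Erythroid markers gave 1 UMI in control and 1 at 7 days p.i., and progenitor markers 1 UMI at 7 days p.i. At least 3 UMIs of other cell types' markers were seen in 16 of 38 control members, in 4 of 4 at 1 day and in 9 of 91 at 7 days p.i. Libraries shared 44 to 149 cell barcodes by pair, and no barcode was a member in more than 1 library. No doublets were called.

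Control members carried many more granule transcripts each than members at 7 days p.i. Camp gave 666 UMIs in the 38 control members (0 to 109 per member, median 13), 35 UMIs in the 4 members at 1 day (0 to 22) and 32 UMIs in the 91 members at 7 days p.i. (0 to 7, median 0). Ltf gave 159 UMIs in control (0 to 26, median 3), 6 at 1 day (0 to 5) and 23 at 7 days p.i. (0 to 11, median 0). Ngp gave 430 UMIs in control (0 to 35, median 7.5), 32 at 1 day (3 to 15) and 384 at 7 days p.i. (0 to 33, median 3). Control members reached the highest counts of all 3 genes, and the ranges overlapped at the low end, where the rule's limit of 2 UMIs lies. Relative to all UMIs of the members, Camp stood at 21570 CPM in control and 592 at 7 days p.i., a ratio of 0.0275 (0.0186 to 0.0391), Ltf at 5150 and 426, a ratio of 0.0827 (0.0509 to 0.128), and Ngp at 13927 and 7107, a ratio of 0.51 (0.444 to 0.587).

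**Figure D1:**
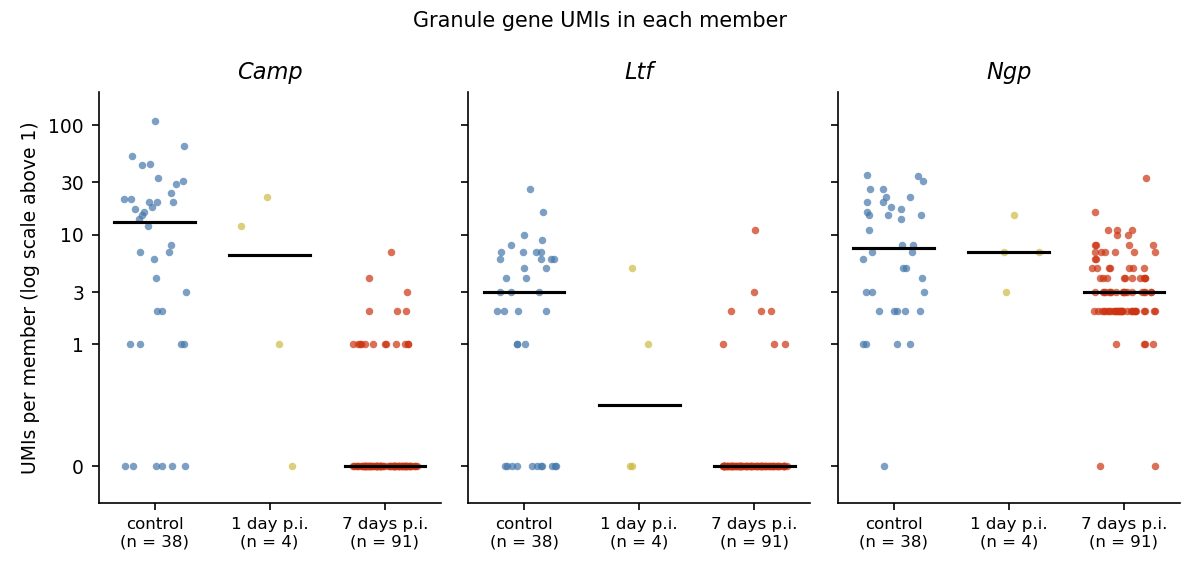
UMIs of Camp, Ltf and Ngp in each member (y axis, log scale above 1), 1 point per member, by library, with the median as a bar. Control members reach 109 UMIs of Camp and members at 7 days p.i. reach 7, with a median of 0, whereas Ngp has a median of 7.5 in control and 3 at 7 days p.i.

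The combination of the 3 genes also differed. All 3 were detected in 27 of 38 control members (71.1%, 54.1 to 84.6), in 2 of 4 members at 1 day and in 5 of 91 at 7 days p.i. (5.49%, 1.81 to 12.4), where 70 members carried Ngp without Camp or Ltf (76.9%, against 6 members or 15.8% in control). With every cell thinned to 300 UMIs, all 3 were seen in 55.3% of control members and 3.3% of members at 7 days p.i., so that the order was the same at equal total depth. Thinning did not make granule UMIs equal, which took 4.06% of the UMIs of control members and 0.812% at 7 days p.i. A member with exactly 2 granule UMIs cannot show all 3 genes. The combination was thus not set apart from the lower granule level at 7 days p.i. Control members had at least 10 granule UMIs in 24 of 38 cases and members at 7 days p.i. in 7 of 91, while 53 of these 91 had 2 or 3. The values next to the limit were those of 4 control members and 34 members at 7 days p.i. with exactly 2 granule UMIs, and of 25 and 168 cells with exactly 1, which are not members. Within control members the counts of Camp and Ngp went together (Spearman's rho 0.79 over 38 members), as did those of Camp and Ltf (0.73). At 7 days p.i. rho was 0.24 and 0.35 over 91 members, of which 18 held Camp and 8 held Ltf. Most Camp and Ltf counts were thus tied at 0 there, so these values cannot be set against those of control. The members behind each rho share 1 library.

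The rule selects cells on these 3 genes, so that it fixes in part how much of their mRNA lay in members. Of all UMIs in cells with at least 200 genes, members held 91.2% of Camp, 87.4% of Ltf and 84.8% of Ngp in control, and 82.1%, 88.5% and 68% at 7 days p.i. Of the UMIs in all barcodes, including those under 200 genes, members held 76.1%, 69.4% and 67.1% in control and 53.3%, 52.3% and 38.8% at 7 days p.i. A further 159 UMIs of Ngp at 7 days p.i. lay in cells with exactly 1 granule UMI. Ngp therefore spread over more cells at low counts than Camp and Ltf did at this time.

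Members differed between control and 7 days p.i. in the genes of the mature neutrophil. Retnlg, a resistin-like secreted protein, Cxcr2, the receptor for neutrophil chemokines, and Csf3r, the receptor for G-CSF, took 0.761% (0.667 to 0.865) of the UMIs of control members, 0.277% (0.138 to 0.495) at 1 day and 3.19% (3.04 to 3.34) at 7 days p.i. Retnlg was seen in 21 of 38 control members (0 to 42 UMIs, median 1) and in 89 of 91 members at 7 days p.i. (0 to 53, median 14). The share of members with Retnlg was 52.6% and 96.7% after thinning to 300 UMIs. Cxcr2 was seen in 12 of 38 control members and in 69 of 91 at 7 days p.i. The rule for members did not use these 3 genes, and 20 of 38 control members, 1 of 4 at 1 day and 89 of 91 at 7 days p.i. had at least 2 UMIs of them. Granule UMIs outnumbered those of the 3 mature genes in 28 of 38 control members and in 8 of 91 at 7 days p.i. Retnlg stood at 6413 CPM in control members and 28521 at 7 days p.i., and Cxcr2 at 907 and 2813. Barcodes with T or NK cell markers also held more at 7 days p.i., with Retnlg at 169 and 1902 CPM and Cxcr2 at 43.6 and 816. The part of such background in the members' levels was not tested.

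Within control, members with a larger share of granule transcripts tended to have a smaller share of mature genes. The share of UMIs from Camp, Ltf and Ngp was related to that of Retnlg, Cxcr2 and Csf3r with a Spearman's rho of -0.47 over 38 control members and 0.18 over 91 members at 7 days p.i. Both shares have the members' depth as their denominator, and the granule share, whose limit the rule sets, was related to depth with a rho of -0.25 in control and -0.46 at 7 days p.i. The 24 control members with at least 10 granule UMIs had 0.289% (0.217 to 0.377) of their UMIs in the 3 mature genes, whereas the 7 such members at 7 days p.i. had 3.71% (3.11 to 4.4). The highest share of granule UMIs in a member was 11.17% in control and 8.586% at 7 days p.i. The latter was 1 member, which had 4.38% of its UMIs in the mature genes. The next highest granule share at 7 days p.i. was 3.63%, below the control median of 3.788%.

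**Figure D2:**
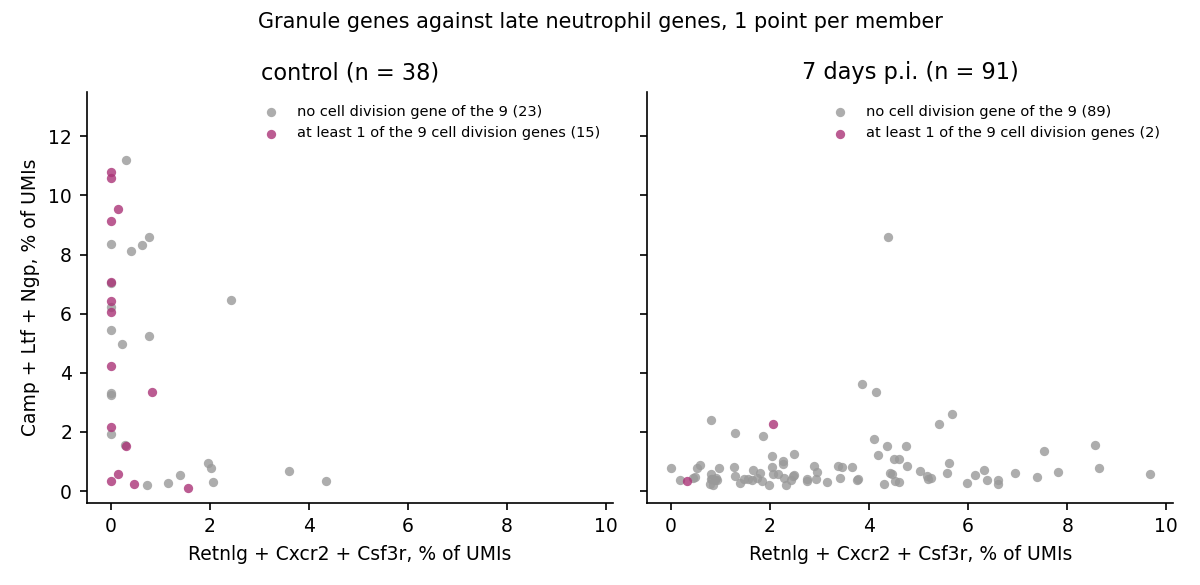
Share of UMIs from Camp, Ltf and Ngp (y axis, %) against the share from Retnlg, Cxcr2 and Csf3r (x axis, %), 1 point per member, in control and at 7 days p.i. Coloured points have at least 1 UMI of 9 cell division genes. In control, 15 of 38 members are coloured and the members with a granule share above 7% lie below 1% on the x axis, while at 7 days p.i. 2 of 91 members are coloured and most lie low on the y axis.

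Cell division genes were found in control members and were rare in members at 7 days p.i. A list of 35 genes of DNA synthesis, mitosis and chromatin took 0.884% (0.782 to 0.996) of the members' UMIs in control, 0.931% (0.656 to 1.28) at 1 day and 0.126% (0.0977 to 0.16) at 7 days p.i., against 0.303%, 0.291% and 0.151% in the comparison cells of the same libraries. The ratio of members to comparison cells was 2.92 (2.54 to 3.36) in control, 3.2 (2.12 to 4.74) at 1 day and 0.833 (0.644 to 1.06) at 7 days p.i. Among S100-rich cells it was 5.82 in control and 0.983 at 7 days p.i. In control the leading member gave 42 of 273 UMIs, and the share was 0.803% without it and 0.643% without the 3 leading members. The value at 1 day rested on 1 member, which gave 31 of 37 UMIs, and was 0.278% without it.

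Single division genes showed the same order. Mki67, the antigen of proliferating nuclei, gave 20 UMIs in 9 of 38 control members, 0 UMIs at 1 day and 1 UMI in 91 members at 7 days p.i. Top2a, the topoisomerase that untangles replicated DNA, gave 18 UMIs in 9 control members, 1 UMI at 1 day and 1 at 7 days p.i. Both stood above the control comparison cells, by 4.11 (2.27 to 7.19) and 3.52 (1.91 to 6.25). Hmgb2, a chromatin protein of dividing cells, gave 102 UMIs in 25 control members (3304 CPM), 9 UMIs in 3 members at 1 day and 32 UMIs in 28 members at 7 days p.i. (592 CPM). Hmgn2, a nucleosome-binding protein, gave 38 UMIs in 14 control members and was 10.1 times (6.1 to 16.7) its level in comparison cells, against 2.48 times (1.31 to 4.32) at 7 days p.i., with 14 UMIs. T and NK cell barcodes of the control library held Hmgb2 at 2800 CPM, close to the members.

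A count of cells gave the same picture. At least 1 UMI of 9 core genes of division was seen in 15 of 38 control members (39.5%, 24 to 56.6) and in 16% (11.9 to 20.8) of control comparison cells, and in 2 of 91 members (2.2%, 0.267 to 7.71) and 1.61% of comparison cells at 7 days p.i. Thinned to 300 UMIs, the shares were 23.7% and 6.09% in control and 1.1% and 1.06% at 7 days p.i. Of the genes with at least 30 UMIs in control members and comparison cells together, 5 of the 7 division genes were at least 2-fold higher in members, none was 2-fold lower, and their median log2 ratio was 1.78. Of all 1316 such genes, 5.17% were at least 2-fold higher and 29.7% at least 2-fold lower, with a median of -0.28. For 7 days p.i., 1 of 7 division genes was 2-fold higher and 2 were 2-fold lower, against 5.63% and 33.7% of 4526 genes.

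Division genes of control were more frequent in members with few UMIs of mature genes. The 18 control members with fewer than 2 UMIs of Retnlg, Cxcr2 and Csf3r had 1.36% (1.18 to 1.57) of their UMIs in division genes and 5.65% (5.27 to 6.05) in the 3 granule genes, while the 20 with at least 2 such UMIs had 0.471% (0.372 to 0.588) and 2.69% (2.45 to 2.96). A core division gene was seen in 11 of the 18 and in 4 of the 20. In the 20, 1 member gave 42 of the 78 division UMIs, and without it the share was 0.249% (0.175 to 0.345). That member, the leading one of control, had 33 UMIs of mature genes and 2 granule UMIs. Chi3l3, a chitinase-like protein of the secondary granule list that has near-identical relatives, so that its count is uncertain, gave 59 UMIs in the 18 members and 7 in the 20. Within control, then, members ranged from cells with granule and division genes to cells with granule and mature genes. The 7 members at 7 days p.i. with at least 10 granule UMIs had 0.167% (0.0614 to 0.364) in division genes, with a core division gene in 1 of 7.

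Primary granule genes that mark neutrophil precursors were detected in a few control members, and those named first here were not seen in members at 1 day or 7 days p.i. Mpo, myeloperoxidase, gave 7 UMIs in 3 control members and 0 in comparison cells, and the members held 7 of the 38 Mpo UMIs of all control cells. Elane, neutrophil elastase, gave 4 UMIs in 3 control members, Prtn3, proteinase 3, 3 UMIs in 3, and Ms4a3, a membrane protein of granulocyte precursors, 5 UMIs in 4, each with 0 UMIs in control comparison cells. Fcnb, ficolin B, gave 15 UMIs in 5 control members and 1 UMI in 281 comparison cells. None of these 5 genes gave a UMI in members at 1 day or 7 days p.i., which for Mpo or Elane in 91 members allows up to 3.3% of members with a UMI, and does not limit the share that express the gene below detection. The remaining detected genes of the list, the lysosomal proteins Ctsd, Ctsc and Cd63, are also made by macrophages. With them, the whole list of 10 genes stood at a ratio of 1.13 (0.879 to 1.45) of members to comparison cells in control and 0.626 (0.51 to 0.762) at 7 days p.i., and at 3.02 and 0.712 among S100-rich cells.

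Secondary granule genes other than those of the rule were higher in members than in comparison cells in control and at 7 days p.i., and with less certainty at 1 day. Members were chosen by Camp, Ltf and Ngp, and comparison cells had no UMI of them. The rule therefore sets part of any excess in genes that go along with these 3, and the ratios are descriptions. The 17 genes found took 2.19% (2.03 to 2.36) of the UMIs of control members against 0.84% of comparison cells, 1.08% (0.783 to 1.46) against 0.586% at 1 day, and 1.83% (1.71 to 1.94) against 1.05% at 7 days p.i., which are ratios of 2.61 (2.39 to 2.85), 1.85 (1.29 to 2.59) and 1.75 (1.64 to 1.87). Among S100-rich cells the ratio was 2.25 (1.99 to 2.54) in control, 1.76 (0.866 to 3.63) at 1 day and 1.95 (1.81 to 2.11) at 7 days p.i., and at 1 day it was 1.25 with a minimum of 300 genes. With at least 30 UMIs, 4 of 9 genes were 2-fold higher and 1 lower in control, with a median log2 ratio of 0.91, and 7 of 13 were higher and none lower at 7 days p.i., with a median of 1.46. Of all genes counted, 5.17% were 2-fold higher and 29.7% lower in control, and 5.63% and 33.7% at 7 days p.i.

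Lcn2, lipocalin 2, which binds bacterial siderophores, stood well above comparison cells in control and at 7 days p.i. It gave 0 to 23 UMIs per control member (median 3, 36 of 38 members with a UMI), 0 to 3 at 1 day and 0 to 18 at 7 days p.i. (median 3, 78 of 91). Members held 6251 CPM in control and 6607 CPM at 7 days p.i., against 919 and 1313 in comparison cells, ratios of 6.8 (5.59 to 8.27) and 5.03 (4.47 to 5.65). These ratios were 3.47 (2.68 to 4.52) and 2.37 (2.08 to 2.7) among S100-rich cells. Lcn2 in members was thus at about the same level in control and at 7 days p.i., with a ratio of 1.06 (0.885 to 1.27), unlike Camp and Ltf.

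Other secondary granule genes varied in whether the excess was seen in both libraries. Cd177, a surface protein of neutrophils, stood at 389 CPM in control members and 555 at 7 days p.i., which was 6.57 times (2.81 to 15) and 9.23 times (5.8 to 14.4) the comparison cells, and 1.92 times (0.718 to 5.14) and 4.33 times (2.51 to 7.39) among S100-rich cells. Anxa1, annexin A1, stood at 5 times (3.52 to 7.04) and 4.13 times (3.06 to 5.49) the comparison cells. Pglyrp1, a peptidoglycan recognition protein, stood at 3.24 times (1.66 to 6.03) and 5.59 times (3.23 to 9.24). Itgb2l, an integrin beta chain, gave only 9 UMIs in control members and 6 at 7 days p.i., at 10.6 times (3.5 to 33.4) and 18.2 times (5.05 to 63.2) the comparison cells. Among S100-rich cells Anxa1 stood at 3.84 (2.33 to 6.48) and 3.63 (2.54 to 5.16) and Itgb2l at 5.12 (1.23 to 30) and 4.67 (1.3 to 16.2), while Pglyrp1 stood at 1.19 (0.547 to 2.49) in control and 2.53 (1.38 to 4.45) at 7 days p.i. These genes were thus above comparison cells at 7 days p.i. in either set, and Anxa1 and Itgb2l in control as well.

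Chi3l3, Mmp8 and Lyz2 had different ratios in control and at 7 days p.i.. Chi3l3 gave 66 UMIs in 19 control members (2138 CPM) against 8 UMIs in 281 comparison cells (31.6 CPM), and 60 UMIs in 32 members at 7 days p.i. (1110 CPM) against 948 CPM in comparison cells. Its ratio was 67.7 (32.4 to 163) in control and 1.17 (0.887 to 1.52) at 7 days p.i., where the cells that failed the S100a8 and S100a9 limits held 1193 CPM and the ratio among S100-rich cells was 3.15 (2.19 to 4.48). Mmp8, neutrophil collagenase, had a ratio of 0.902 (0.53 to 1.45) in control and 3.82 (3.03 to 4.78) at 7 days p.i., with 615 and 1703 CPM in members. Lyz2, lysozyme, which macrophages also make, had a ratio of 1.87 (1.61 to 2.17) in control and 0.576 (0.493 to 0.668) at 7 days p.i. Among S100-rich cells Mmp8 stood at 0.327 (0.176 to 0.57) and 2.16 (1.66 to 2.79), and Lyz2 turned to 3.78 (2.91 to 4.93) and 1.36 (1.11 to 1.66). No UMI of Olfm4, olfactomedin 4, was seen in members or comparison cells.

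**Figure D3:**
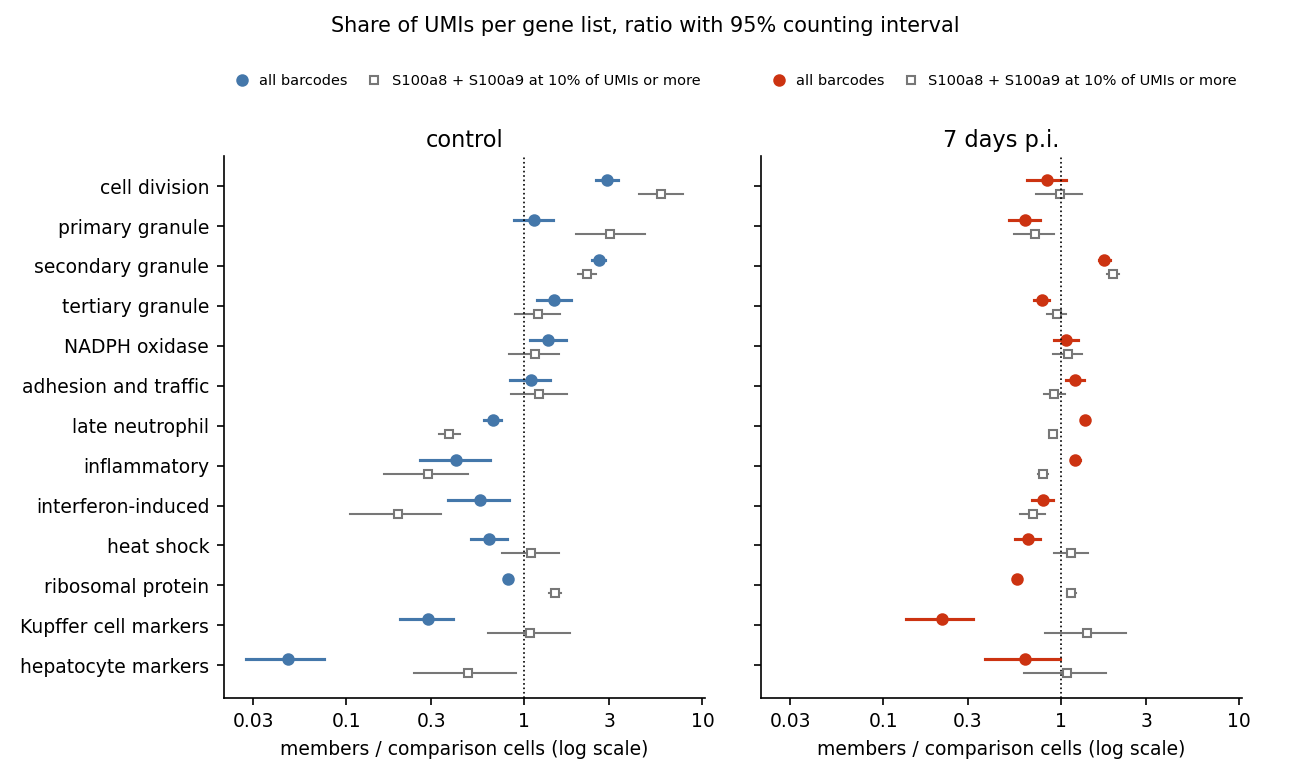
Ratio of the share of UMIs in members to that in comparison cells (x axis, log scale) for 13 gene lists, in control and at 7 days p.i., with 95% counting intervals. Filled points use all members and comparison cells, and open squares those in which S100a8 and S100a9 took at least 10% of the UMIs. The secondary granule list lies above 1 in both libraries (2.61 and 1.75), and cell division lies above 1 in control (2.92) and not at 7 days p.i. (0.833).

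Tertiary granule genes, NADPH oxidase subunits and adhesion genes differed less. The tertiary list had ratios of 1.46 (1.17 to 1.82) in control and 0.777 (0.703 to 0.858) at 7 days p.i., and of 1.19 and 0.943 among S100-rich cells. Mmp9, gelatinase B, stood above all comparison cells in both, at 2.2 times (1.32 to 3.51) and 1.87 times (1.39 to 2.46), but not among S100-rich cells, at 1.11 (0.594 to 2) and 0.962 (0.7 to 1.3). Arg1, arginase 1, stood at 0.238 times (0.176 to 0.314) at 7 days p.i., where cells that failed the S100a8 and S100a9 limits held 7522 CPM against 925 in members. The NADPH oxidase list, which makes superoxide, had ratios of 1.36 (1.07 to 1.71) and 1.07 (0.909 to 1.25), and the adhesion list 1.09 (0.828 to 1.4) and 1.2 (1.07 to 1.35). Among S100-rich cells these were 1.14 (0.822 to 1.57) and 1.09 (0.906 to 1.31), and 1.21 (0.843 to 1.73) and 0.917 (0.801 to 1.05). Itgam, the integrin chain CD11b, gave 20 UMIs in 17 control members and 64 in 50 members at 7 days p.i.

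A list of 27 genes of late neutrophils, none of them used in the rule, was lower in control members than in comparison cells and higher at 7 days p.i. Comparison cells needed at least 2 UMIs of Retnlg, Cxcr2 and Csf3r, which 20 of 38 control members and 89 of 91 members at 7 days p.i. had. For genes that go along with those 3, this choice sets part of the ratio. The list took 1.07% (0.957 to 1.19) against 1.61% in control and 5.5% (5.3 to 5.7) against 4.04% at 7 days p.i., ratios of 0.664 (0.592 to 0.743) and 1.36 (1.31 to 1.41). The S100-rich ratios were 0.379 and 0.9, so that the excess at 7 days p.i. was not seen in that subset. In control, 13 of 23 genes were 2-fold lower and 2 were higher, against 29.7% and 5.17% of all 1316 genes counted. Il1b, interleukin 1 beta, gave 2 UMIs in 38 control members against 216 in comparison cells, a ratio of 0.076 (0.00915 to 0.278), Ifitm1, an interferon-induced membrane protein, 2 UMIs against 283, a ratio of 0.058 (0.00699 to 0.212), and Wfdc17, a secreted protease inhibitor-like protein, 14 UMIs against 856, a ratio of 0.134 (0.0731 to 0.227). The ratios of these 3 genes at 7 days p.i. were 1.2 (1.01 to 1.41), 1.98 (1.69 to 2.32) and 1.32 (1.15 to 1.51), and among S100-rich cells 0.741 (0.618 to 0.884), 1.01 (0.845 to 1.19) and 0.92 (0.788 to 1.07).

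The inflammatory list of chemokines and cytokines followed the late neutrophil list. It took 0.0713% (0.0447 to 0.108) of the UMIs of control members and 0.172% of comparison cells, and 2.36% (2.24 to 2.5) and 1.96% at 7 days p.i., with ratios of 0.415 (0.258 to 0.637) and 1.2 (1.14 to 1.27), and of 0.289 and 0.789 among S100-rich cells. Interferon-induced genes had ratios of 0.564 (0.373 to 0.823) and 0.79 (0.686 to 0.905), and heat shock genes 0.635 (0.501 to 0.794) and 0.652 (0.552 to 0.765), the latter 1.09 and 1.14 among S100-rich cells. Ribosomal protein genes stood at 0.809 (0.773 to 0.846) and 0.564 (0.54 to 0.589), and at 1.49 and 1.14 among S100-rich cells, so that their direction depended on which comparison cells were used. Kupffer cell markers in members were 0.286 and 0.213 times those in comparison cells, and hepatocyte markers 0.0468 and 0.627 times. Among S100-rich cells Kupffer cell markers stood at 1.07 (0.622 to 1.81) and 1.4 (0.81 to 2.31). Hepatocyte markers stood there at 0.48 (0.24 to 0.894) and 1.08 (0.622 to 1.78). The lower Kupffer cell markers in members thus depended on which comparison cells were used. The part of RNA from Kupffer cells and hepatocytes in the ratios of members to comparison cells was not tested.

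The genes that stood furthest above control comparison cells were in part those of the lists and in part those of 1 cell. Igha, the heavy chain of immunoglobulin A, led by interval, but 38 of its 39 UMIs lay in 1 control member, which also held 22 of 23 UMIs of Igkc and 7 of 8 of Igj, together with 36 granule UMIs. The next were Chi3l3, Hmgn2, Lcn2, Anxa1, Hmgb2 and Tuba4a, a tubulin, at 5.93 times (2.67 to 12.8). The genes furthest below were Ifitm1, Wfdc17, Il1b, Spp1, osteopontin, at 0.0513 times (0.00129 to 0.29), and genes that hepatocytes express at high levels. Of these, Fgg, a fibrinogen chain, had 0 UMIs in members and was at least 7.39-fold lower, Mt2, a metallothionein, at least 4.79-fold and Fabp1, the liver fatty acid binding protein, at least 4.3-fold, taking 3 counts in the members as the floor. Hpx, hemopexin, stood at 0.0747 times (0.00898 to 0.273).

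The leading genes at 7 days p.i. included those of granules and of the neutrophil surface. After Cd177, Lcn2, Pglyrp1 and Anxa1 came Prok2, the chemokine-like prokineticin 2, with 18 UMIs in 13 members at 10.6 times (5.67 to 19.2), Ifitm6, with 164 UMIs in 59 members at 6.57 times (5.48 to 7.84), Mrgpra2b, a G protein-coupled receptor with near-identical relatives and so an uncertain count, at 5.45 times (3.47 to 8.32), and 1100001G20Rik, an older symbol of Wfdc21, at 3.78 times (3.35 to 4.26). Ifitm6 and 1100001G20Rik were above comparison cells in control as well, at 3.61 times (2.47 to 5.2) and 2.92 times (2.41 to 3.51). All 4 genes stayed above comparison cells at 7 days p.i. among S100-rich cells, at 3.32 (1.58 to 6.73) for Prok2, 3.47 (2.82 to 4.27) for Ifitm6, 2.16 (1.3 to 3.49) for Mrgpra2b and 1.81 (1.59 to 2.06) for 1100001G20Rik. Prok2 and Mrgpra2b gave 2 and 1 UMIs in control members. The genes furthest below were Lgmn, C1qb, Cd5l, Ccr2, Ccl2, Cxcl10, Arg1 and Eef1g, most of which macrophages or monocytes express. Arg1, Ccl2, Ccr2 and C1qb were all higher in the cells that failed the S100a8 and S100a9 limits than in members.

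Members at 7 days p.i. were compared with control members in 1 library each, so that time, injury and library cannot be told apart. Of 351 genes with at least 30 UMIs in both together, 41.9% were at least 2-fold higher at 7 days p.i. and 12.3% at least 2-fold lower, with a median log2 ratio of 0.58. All 11 counted inflammatory genes were higher, with a median log2 ratio of 5.22, as were 21 of 23 late neutrophil genes, with a median of 3.06, and 7 of 7 immediate early genes, with a median of 2.30. Both counted division genes, Hmgb2 and Hmgn2, were lower, at 0.179 (0.117 to 0.269) and 0.211 (0.105 to 0.398) times control. Of 65 ribosomal protein genes 20 were 2-fold lower and none higher, and of 8 mitochondrial genes 7 were lower, mt-Rnr2 at 0.182 times. Of 9 secondary granule genes 2 were higher and 1 lower, with a median of -0.29. Comparison cells also differed between these libraries. In control and at 7 days p.i. their UMIs were 0.172% and 1.96% inflammatory, 1.61% and 4.04% late neutrophil and 0.232% and 0.563% immediate early genes. Division genes took 0.303% and 0.151% of them, ribosomal protein genes 8.41% and 7%, mitochondrial genes 19.4% and 4.56% and secondary granule genes 0.84% and 1.05%.

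Chemokine and activation genes gave the furthest separation between these libraries. Cxcl2, a chemokine that recruits neutrophils, gave 1 UMI in 38 control members, 8 UMIs in 1 of 4 members at 1 day and 519 UMIs in 83 of 91 members at 7 days p.i. (0 to 23, median 5). Srgn, serglycin, the proteoglycan that packs granules, gave 12 UMIs in 5 control members and 683 in 90 members at 7 days p.i., 389 and 12641 CPM, a ratio of 32.5 (18.5 to 63.3). Cd14, the co-receptor for lipopolysaccharide, gave 0 UMIs in control and 217 in 65 members at 7 days p.i., at least 41.3-fold higher with a floor of 3 counts. Cxcl3, another neutrophil chemokine, gave 0 and 113 UMIs, at least 21.5-fold. Il1b stood at 64.8 and 2906 CPM, Ifitm1 at 64.8 and 3220, Thbs1, thrombospondin 1, at 32.4 and 2480, and Spp1 at 32.4 and 2276.

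The same genes were detected throughout the library at 7 days p.i., also in barcodes with markers of other cells. Cxcl2 stood at 2794 CPM in cells that failed the S100a8 and S100a9 limits and at 2793 in 163 barcodes with T or NK cell markers, against 9606 in members, and in control at 40.5 in the former. Cd14 was 1098 and 784 CPM there against 4016 in members, Srgn 7090 and 4695 against 12641, Il1b 1018 and 806 against 2906, and Ifitm1 700 and 698 against 3220. Cxcl3 and Thbs1 were 1931 and 1571 CPM outside the limits, close to the 2091 and 2480 of members, and Spp1 was 4230 outside and 2385 in T and NK barcodes against 2276 in members, so that its level in members was not above that background. The comparison cells at 7 days p.i. held Cxcl2 at 7773 CPM, Srgn at 10660 and Cd14 at 2234. Ngp and Lcn2 stood at 53.7 and 215 CPM in these T and NK barcodes, against 7107 and 6607 in members. The part of free RNA in the members' levels was not tested.

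Control and 7 days p.i. also differed among members that carried mature genes in both. In the 20 control members with at least 2 UMIs of Retnlg, Cxcr2 and Csf3r, the 3 granule genes took 2.69% (2.45 to 2.96) of the UMIs, against 0.817% (0.742 to 0.898) in the 89 such members at 7 days p.i. Division genes took 0.471% (0.372 to 0.588), or 0.249% (0.175 to 0.345) without the leading control member, and 0.126% (0.0977 to 0.16), and the late neutrophil list 1.23% (1.07 to 1.41) and 5.52% (5.32 to 5.72), and the inflammatory list 0.0966% (0.0552 to 0.157) and 2.33% (2.2 to 2.46). These members thus showed the same order between the libraries as all members. The secondary granule list was close in both, at 1.92% (1.72 to 2.14) and 1.84% (1.72 to 1.95).

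**Figure D4:**
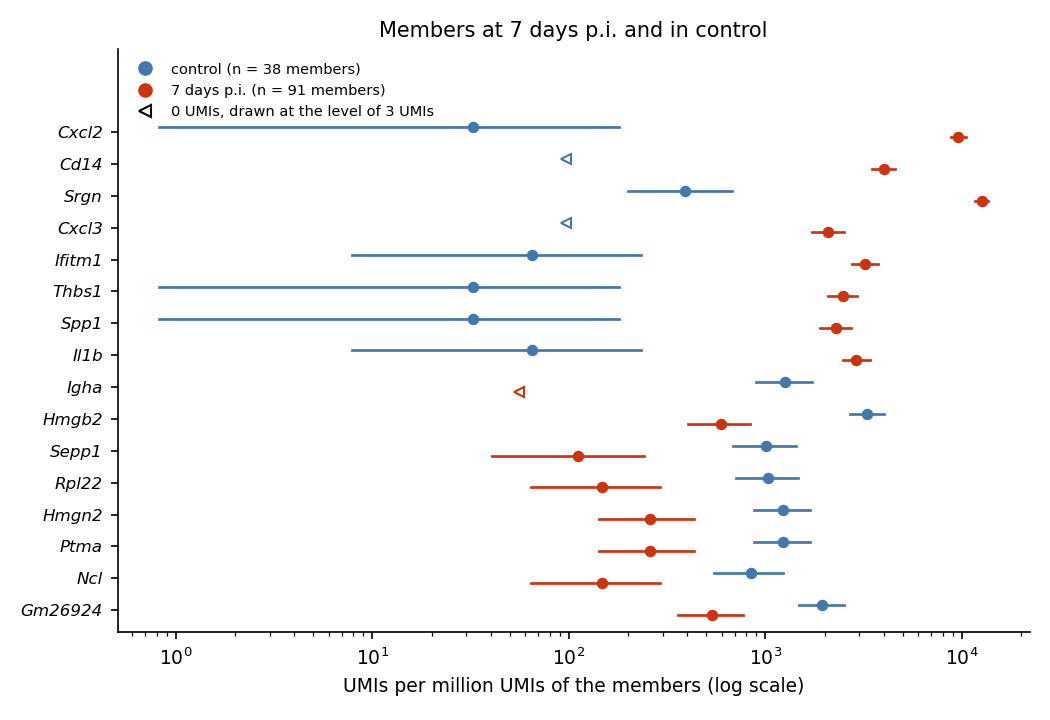
CPM, the UMIs per 1000000 UMIs of the members (x axis, log scale) for the 8 genes furthest higher and the 8 furthest lower at 7 days p.i., in the 38 control members and the 91 members at 7 days p.i., with 95% counting intervals. Open triangles mark 0 UMIs and are drawn at the level of 3 UMIs. Cxcl2 stands at 32.4 in control and 9606 at 7 days p.i., and Hmgb2 at 3304 and 592.

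Among the lower genes, Igha rested on 1 control member and Gm26924, a transcript with no assigned function here, stood at 1943 and 537 CPM. Ptma, prothymosin alpha, was 1231 and 259 CPM, Ncl, nucleolin, 842 and 148, Rpl22, a ribosomal protein, 1036 and 148, and Sepp1, the selenium carrier of plasma, 1004 and 111. Ptma and Ncl stood at 991 and 671 CPM at 7 days p.i. in cells that failed the S100a8 and S100a9 limits. Both genes were thus lower in members than in those cells. The order was the same in control, where cells that failed the limits held 1675 and 1139 CPM.

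The 4 members at 1 day p.i. were unlike each other. The first had 1818 UMIs, with 22 of Camp, 0 of Ltf and 7 of Ngp, none of the 3 mature genes and 31 of the division list. The second had 489 UMIs, with 12 of Camp, 1 of Ltf and 15 of Ngp, 1 of the mature genes and 3 of the division list. The third had 546 UMIs, with 1, 5 and 7, 1 of the mature genes and 36.3% mitochondrial UMIs, and the fourth had 1120 UMIs, with Ngp alone at 3, 9 of the mature genes and 19 of the inflammatory list. Hepatocyte markers gave 23, 6, 5 and 20 UMIs in these 4 members. With so few cells, shares at 1 day p.i. have wide intervals, and no gene was compared between this library and another.

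Genes whose UMIs lay most in members were sought among all S100a8 and S100a9 cells of the 3 libraries pooled, in which members held 3.36% of all UMIs. By library this share was 6% in control and 2.62% at 7 days p.i., and the pooled order depends in part on the libraries in which a gene was seen. Leaving out the genes of the rule, members held 75.5% of Igha UMIs, 38 of 40 of them from 1 cell, 45.5% (28.1 to 63.6) of Itgb2l, 27.5% (17.5 to 39.6) of Serpinb1a, an inhibitor of neutrophil proteases, and 26.1% (19.5 to 33.5) of Cd177. Then came Prok2 at 20%, Lcn2 at 18% (16.6 to 19.4), Pglyrp1 at 17.9%, Ifitm6 at 17.2% and 1100001G20Rik at 13.3%. Within control, members held 56.2% of Itgb2l, 50% of Serpinb1a, 41.4% of Cd177, 40.7% of Lcn2 and 7.41% of Prok2, and at 7 days p.i. 35.3%, 10.3%, 22.2%, 13.9% and 25.7%. Members thus held a larger share of Serpinb1a in control than at 7 days p.i., and of Prok2 at 7 days p.i. than in control. Of the UMIs within members, 14 of 19 of Serpinb1a lay in control and 18 of 20 of Prok2 at 7 days p.i. Ly6g, the surface antigen of mouse neutrophils, gave 11 UMIs in 7 control members, 8.21 times (3.23 to 20.9) its level in comparison cells and 4.8 times (1.39 to 21) among S100-rich cells, and 2 UMIs at 7 days p.i.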

How the data were processed

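Dissociated liver cells were profiled by Drop-seq in 3 libraries of control, 1 day p.i. and 7 days p.i. livers. The authors aligned reads with STAR (2.5.2a per the submitters' processing notes) and deposited UMI counts per gene and barcode without normalization. The genome build was not used here: the notes list a human build, while the 19091 gene symbols are those of mouse. Libraries held 10032574, 8563287 and 4580021 UMIs in 15704, 18161 and 12466 barcodes, with medians of 595, 509 and 456.5 UMIs per cell.

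UMIs were summed per library over members and over comparison cells. Sums have exact Poisson, shares exact binomial (Clopper-Pearson) and ratios conditional exact binomial intervals at 95%. A gene was counted with at least 30 UMIs in both groups together and called when at least 2-fold higher or lower. No test was run, since each condition has 1 library. Of 296 list genes 292 were found, 5 under another symbol. Genes outside the lists were named when among the 8 highest or 8 lowest ratios by the interval bound nearest 1, or the 10 with the highest share in members. Members, lists and alternatives were chosen with earlier results of these data known. S100-rich cells were set apart after values had been seen. Promoters came from RefSeq. The ratio intervals were tested on simulated sums of counts, which did not include the clumping of UMIs in single cells. The other steps were not simulated. Python 3.11.15, numpy 2.4.6, scipy 1.17.1, pandas 2.3.3 and matplotlib 3.10.9 were used.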

Additional observations from a re-analysis of the deposited data

Results flagged for a closer look

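Ratios of members to comparison cells lay on opposite sides of 1 in control and at 7 days p.i. for 3 gene lists. The inflammatory list stood at 0.415 (0.258 to 0.637) in control and 1.2 (1.14 to 1.27) at 7 days p.i., the late neutrophil list at 0.664 (0.592 to 0.743) and 1.36 (1.31 to 1.41), and the tertiary granule list at 1.46 (1.17 to 1.82) and 0.777 (0.703 to 0.858). With 1 library per condition the difference between the libraries was not tested. Among S100-rich cells the ratios were 0.289 and 0.789, 0.379 and 0.9, and 1.19 and 0.943, so that the inflammatory and late neutrophil lists then lay below 1 in both libraries.

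Barcodes under 200 genes, which the comparisons leave out, held 77 that met the rest of the rule for members at 7 days p.i., 18 in control and 3 at 1 day p.i. These were 1.78%, 4.69% and 5.26% of such barcodes with both S100a8 and S100a9 at 2 UMIs or more.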

How the results depend on the processing

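No paired analysis was possible because each condition has 1 library. Of 108 alternative values, 68 stayed within the counting interval and 40 moved beyond it. A turn of direction was defined only for the secondary granule ratio, and none was seen there. The restriction to S100-rich cells, the joint denominator and the loss of the leading member were chosen after seeing the data. The values at 1 day p.i. rest on 4 members.

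The share of members among S100a8 and S100a9 cells, in control, became 12.6% with a granule sum of 1 UMI, 3.33% with S100a8 and S100a9 at 1 UMI each, 10.4% without barcodes holding other cells' markers, 27% among S100-rich cells and 11.9% of members and comparison cells together. At 1 day p.i. the last pair gave 33.3% and 9.76%. At 7 days p.i. the share became 7.6% and 1.67% with a granule sum of 1 and 3, 2.01% and 4.15% with S100a8 and S100a9 at 1 and 4, 1.61% with 300 genes, 11.4% among S100-rich cells and 4.65% of both groups together.

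The cell division share of control members became 0.59% with a granule sum of 1, 0.777% with S100a8 and S100a9 at 1, 0.998% with 300 genes, 1.12% with mitochondrial UMIs at 20% at most and 1.1% without mitochondrial, hepatocyte and erythroid genes. At 1 day p.i. it became 0.278% without the leading member, 0.613% without barcodes holding other cells' markers and 0.386% among S100-rich cells. Its range at 7 days p.i. was 0.116% to 0.144%.

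The secondary granule ratio in control became 2 and 2.89 with a granule sum of 1 and 3, 2.3 with S100a8 and S100a9 at 1, 3.01 without other cells' markers, 3.21 without Lyz2 and 2.25 among S100-rich cells. At 7 days p.i. these gave 1.41 and 2 for the sums, 1.6 without other cells' markers, 3.17 without Lyz2 and 1.95 among S100-rich cells, with 1.32 at 300 genes and 2.04 thinned to 300 UMIs. At 1 day p.i. it became 2.62 and 1.25 with 100 and 300 genes, 4.66 without other cells' markers, 1.2 with mitochondrial UMIs at 20% at most and 2.67 thinned. The causes of these shifts were not tested.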

Other observations

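Megakaryocyte and platelet markers gave 3 UMIs in control members, 0 at 1 day and 25 at 7 days p.i. These were 0.00972% of the UMIs in control and 0.0463% at 7 days p.i., against 0.0209% and 0.0905% in comparison cells. The ratio at 7 days p.i. was 0.511 (0.329 to 0.759), and 2.36 (1.13 to 4.67) among S100-rich cells. Its direction thus depended on which cells were used. B cell markers gave 42 UMIs in control members, 18 at 1 day and 20 at 7 days p.i.

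Cd24a, a surface protein of early neutrophils and other cells, stood at 259 CPM in control members and 666 at 7 days p.i., against 154 and 411 in comparison cells. Cxcr4, the receptor that holds neutrophils in the marrow, gave 0 UMIs in control members and 1 at 7 days p.i., and 5 and 55 UMIs in comparison cells.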
